A study of Mus musculus with 12 samples.

Results

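The CD28 family and the inhibitory receptors of T cells are surface proteins that tune the signal a T cell draws from its antigen receptor. Cd28 and Icos are costimulators, Ctla4, Pdcd1 (PD-1) and Btla are inhibitory members of the same broad receptor group, and Lag3, Havcr2 (Tim-3) and Tigit are inhibitory receptors of other immunoglobulin-like types. Cd28 is on resting T cells, while Ctla4, Icos and Pdcd1 are known to be induced by activation and all of the inhibitory receptors are studied for their part in T cell exhaustion. These 8 genes were picked by symbol from the deposited table, each stood on 1 row, and they are 8 of 37544 gene areas. All 8 passed the filter on low values, a mean signal of at least 3.31 over the 10 libraries of both antibodies, as did 28159 gene areas in all.

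The table holds DNA immunoprecipitation sequencing signal, in which sonicated and denatured mouse genomic DNA was pulled down with an antibody against 5-methylcytosine (5mC) or against 5-hydroxymethylcytosine (5hmC), the product that Tet enzymes make from 5mC. Naive T cells and cells labelled Th1, Th2, iTreg and Th17 each gave 1 library per antibody, and Th17 cells also gave 1 control IgG library and 1 input DNA library. The study used mice of the CD2(Cre)Tet2(f/f) line and wild-type littermates on a mixed background, but the labels used here do not tie a genotype, an age or a culture condition to any library. 5mC is a stable mark often found at silenced DNA, though not only there, and 5hmC is often rich over genes that a cell is using. A signal value is the authors' mean over the whole gene area, so exons, introns, UTRs and sequence next to the start site are not told apart.

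Since each group was 1 library, no spread between replicates is known and cell types were compared without a test, by size alone: a log2 difference of at least 1, which is 2-fold. The number of reads behind each library is unknown, and no counting interval can be given. Cytokine genes were used to check the labels. Ifng was highest in Th1 with a 5hmC signal of 22.6 and Il4 was highest in Th2 with 82.6, but Il17a had 31.3 in the library labelled iTreg and 8.8 in that labelled Th17, and Il17f had 32.8 and 5.3. The 2 libraries are therefore called by their labels, and counts are also given without them. Summed 5hmC over markers of other cells was highest in naive cells: 307 against 128.6 to 152.4 for 6 B cell genes, 251.1 against 133.1 to 161.8 for 6 CD8 T and NK cell genes, and 240.5 against 88.8 to 167.9 for 5 myeloid genes, with no marker at 0. The sum of 4 T cell genes was highest there too, 492 against 111.1 to 184.2. Single genes carried much of it: Cd79a had 159.2 of the B cell sum and Cd68 133 of the myeloid sum in naive cells, while Pax5 and Csf1r were lowest there. The part of these differences in the results below was not tested. Scaling by median ratios would raise the 5hmC differences from naive by 0.19, 0.15, 0.16 and 0.30 for the Th1, Th2, labelled iTreg and labelled Th17 libraries.

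The 8 receptor genes lay above most gene areas in 5hmC. Of their 40 values in the 5 libraries, 37 were at or above the median over all gene areas tested, which was 16.7 in naive cells and between 12.5 and 14.2 elsewhere. The values below it were Cd28 in the library labelled Th17 and Tigit in Th1 and in that labelled Th17. The median of the 8 genes was 39.45 in naive cells, 29.7 in Th1, 40 in Th2, 30.75 in the library labelled iTreg and 21 in that labelled Th17. Signal at the 8 genes in Th17 input DNA was 1.4 to 2.5 and in Th17 IgG 0.4 to 2.2. In the 5hmC library labelled Th17 the same genes stood 5.5-fold to 18-fold above input and 5.5-fold to 85.2-fold above IgG, with Tigit closest to IgG and Lag3 farthest from it.

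**Figure D1:**
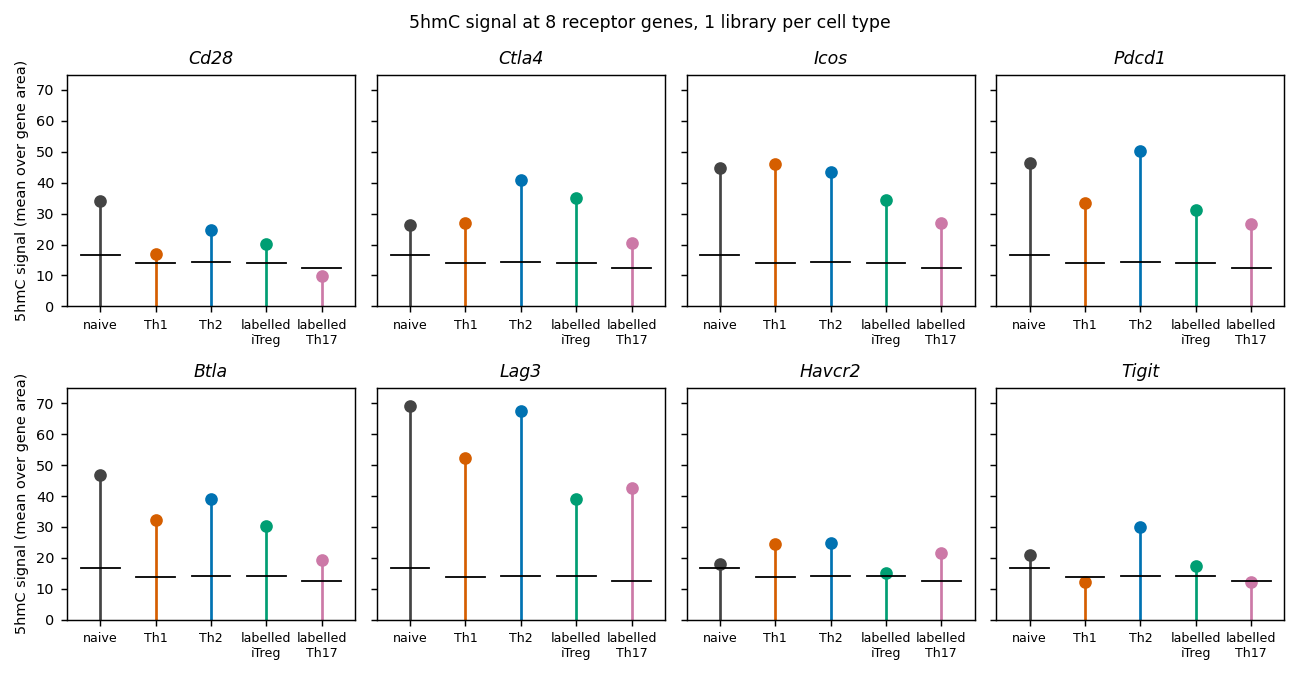
5hmC signal (mean over the gene area, y axis) at each receptor gene in the 5 libraries (x axis, 1 point per library), with the median over all gene areas tested as a black line. Lag3 reaches 69 in naive cells and 67.6 in Th2, Cd28 goes from 34 in naive cells to 9.9 in the library labelled Th17, and Ctla4, Pdcd1, Havcr2 and Tigit have their highest point in Th2.

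Most DNA methylation sits on CG pairs, which were counted just before the start sites. RefSeq promoter windows on GRCm38.p6 were found for 5 of the 8 genes: Btla, Ctla4, Havcr2, Pdcd1 and Tigit. In the 250 bases before the start, CG occurred 7 times in Ctla4, 5 in Tigit, 4 in Btla, 3 in Pdcd1 and 2 in Havcr2. The median over all 32851 windows of the same length was 6, the quartiles were 2 and 16, so the 5 genes lay within the quartiles, with Ctla4 above the median. Of all windows 92.1% held at least 1 CG, which reads the same on both strands. Those of Ctla4 (highest 5hmC in Th2), Btla (highest in naive) and Havcr2 (fewest CG pairs) are shown 5′ to 3′ on the strand of the gene, with each CG in capitals. The deposited means cover the whole gene area and do not resolve these windows.
Ctla4, chr1:60908775-60909024, plus strand: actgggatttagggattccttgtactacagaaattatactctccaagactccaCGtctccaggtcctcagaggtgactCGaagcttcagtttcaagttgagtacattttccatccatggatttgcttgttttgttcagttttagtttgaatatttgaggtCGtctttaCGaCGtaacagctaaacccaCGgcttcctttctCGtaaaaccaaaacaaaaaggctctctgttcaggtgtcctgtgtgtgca
Btla, chr16:45224087-45224336, plus strand: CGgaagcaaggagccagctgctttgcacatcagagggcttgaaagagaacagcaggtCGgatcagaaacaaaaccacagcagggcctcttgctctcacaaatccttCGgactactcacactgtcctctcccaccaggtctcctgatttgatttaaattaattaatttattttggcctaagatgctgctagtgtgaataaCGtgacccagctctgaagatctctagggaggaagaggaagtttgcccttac
Havcr2, chr11:46454681-46454930, plus strand: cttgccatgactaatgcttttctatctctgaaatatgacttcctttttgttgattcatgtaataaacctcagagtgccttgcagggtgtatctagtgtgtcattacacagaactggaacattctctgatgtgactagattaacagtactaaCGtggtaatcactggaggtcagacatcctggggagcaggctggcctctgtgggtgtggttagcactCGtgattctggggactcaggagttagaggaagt

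Cd28, Ctla4 and Icos lie side by side on 254 kb of chromosome 1. Their 5hmC profiles over the cell types differed. Cd28, the main costimulator of naive T cells (chromosome 1, 60803231 to 60830202, plus strand, mm9), had 34 in naive cells, 17 in Th1, 24.8 in Th2, 20.1 in the library labelled iTreg and 9.9 in that labelled Th17. Naive cells were highest and the library labelled Th17 was lowest, 3.43-fold below naive. The log2 differences from naive were -0.99, -0.45, -0.75 and -1.76 for the Th1, Th2, labelled iTreg and labelled Th17 libraries, so Th1, exactly 2-fold below naive in the deposited values, missed the size rule only through the 0.2 added before log2.

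Ctla4, which competes with Cd28 for the ligands Cd80 and Cd86 (60965868 to 60972673, plus strand), starts 136 kb beyond the end of Cd28. It had 26.3 in naive cells, 27.1 in Th1, 41 in Th2, 35 in the library labelled iTreg and 20.4 in that labelled Th17. Th2 was 1.56-fold above naive and the library labelled iTreg 1.33-fold, naive and Th1 lay close together, and the library labelled Th17 was lowest. Icos, the inducible costimulator that supports follicular helper and regulatory T cells (61034757 to 61057163, plus strand), lies 62.1 kb further on. It had 44.9 in naive cells, 46 in Th1, 43.4 in Th2, 34.4 in the library labelled iTreg and 27 in that labelled Th17. Naive, Th1 and Th2 were nearly level, and both libraries with doubtful labels were lower, by 0.38 and 0.73 on the log2 scale. The Th2 difference from naive was -0.05 as deposited and 0.10 with median-ratio scaling, so its direction is not given.

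The 5 other gene areas between Cd28 and Icos are predicted genes and a pseudogene, and 4 of them had their highest 5hmC in naive cells. Gm11579, 3305 bp beyond Cd28, had 71.6 in naive cells and 20.5, 33.6, 27.1 and 13.7 in the Th1, Th2, labelled iTreg and labelled Th17 libraries. It followed the same order as Cd28, on a higher level. Around Ctla4 the pseudogene Rpl18-ps1 stood at 31.9 in naive cells and between 13.9 and 18.6 elsewhere, and Gm11582 at 48.4 and between 9.4 and 27.2. Ctla4 was thus flanked by gene areas lower than naive in each of the 4 libraries, while Ctla4 itself was above naive in 3 of them. Gm11609, of 589 bp, was the exception, with 36.4 in the library labelled Th17 against 28.1 in naive cells. These areas are 589 to 5170 bp long, and a short area gives a less precise mean. On the far side of Icos the signal was low: Gm11591 had 4.4 to 7.8 and Pard3b 4.7 to 7.7.

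**Figure D2:**
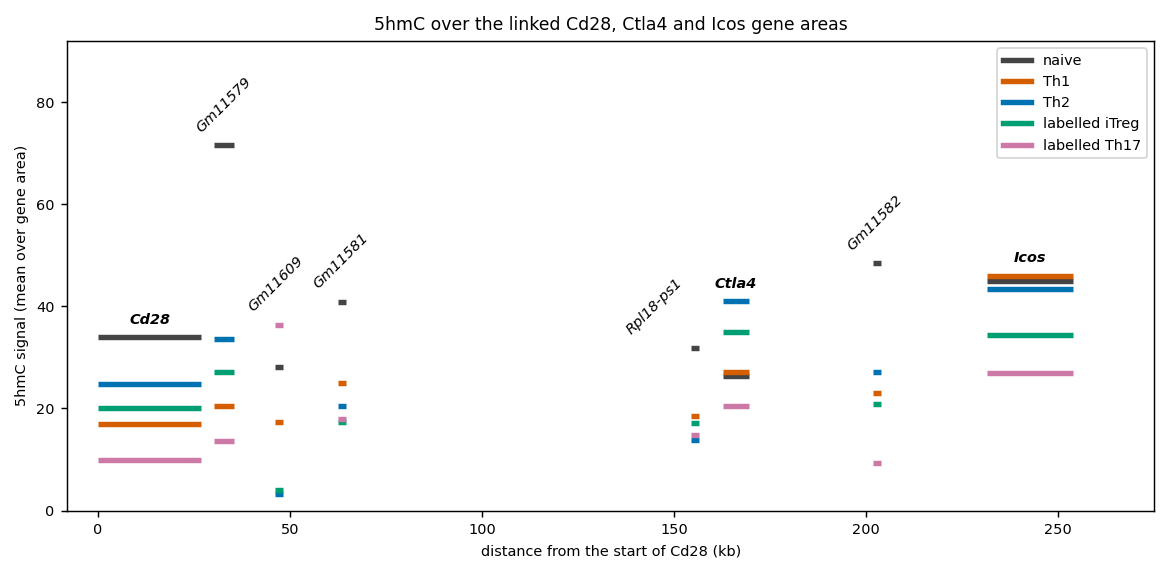
5hmC signal (mean over each gene area, y axis) against distance from the start of Cd28 (kb, x axis), with a bar over each gene area and a colour for each library. Naive cells are highest at Cd28 with 34 and at Gm11579 with 71.6, while at Ctla4 Th2 is highest with 41 and at Icos Th1 with 46.

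Pdcd1, the receptor for the ligands PD-L1 and PD-L2 (chromosome 1, 95934881 to 95949129, minus strand), had 46.3 in naive cells, 33.6 in Th1, 50.4 in Th2, 31.3 in the library labelled iTreg and 26.7 in that labelled Th17. Naive and Th2 were the high libraries, and the other 3 were 1.38-fold to 1.73-fold below naive. Neu4, a sialidase gene 9970 bp away, had 21 to 32 in the 5 libraries, with naive highest. Btla, whose ligand is Tnfrsf14 (chromosome 16, 45224449 to 45253007, plus strand), had 46.7, 32.3, 39, 30.2 and 19.4 in the naive, Th1, Th2, labelled iTreg and labelled Th17 libraries. All 4 differentiated libraries were below naive, with the library labelled Th17 lowest at 2.41-fold. Cd200, an inhibitory ligand gene 129239 bp from Btla, had 27.9, 35.7, 37.3, 23.4 and 19.3 in the same order and was highest in Th2. Closer to Btla, on its other side, Gm6030 at 18764 bp had 3 to 7.2 and was highest in Th1. Atg3 at 35798 bp had 10.5 to 16.3 and was highest in Th2.

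Lag3, which binds MHC class II (chromosome 6, 124854376 to 124861722, minus strand), had the highest level of the 8 in each of the 5 libraries: 69 in naive cells, 52.2 in Th1, 67.6 in Th2, 38.9 in the library labelled iTreg and 42.6 in that labelled Th17. Naive and Th2 were nearly level, and the direction of that pair turned with median-ratio scaling, from -0.03 to 0.12 on the log2 scale. Lag3 lies inside Gm20170, a predicted gene on the other strand, and signal from their shared DNA cannot be told apart. Cd4, the coreceptor gene 16149 bp away, stood at 126.2 in naive cells, with 50.9, 46.3, 57.3 and 36.9 in the Th1, Th2, labelled iTreg and labelled Th17 libraries. It was at least 2-fold below naive in each of the 4, where Lag3 was in none. Ptms, 1969 bp on the other side, stood at 95.8 in naive cells and between 48.6 and 76 elsewhere, with Th2 closest to naive as at Lag3.

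Havcr2, a receptor of exhausted and Th1 cells (chromosome 11, 46268432 to 46294756, plus strand), had 17.9 in naive cells, 24.6 in Th1, 24.9 in Th2, 15 in the library labelled iTreg and 21.6 in that labelled Th17. Th1 and Th2 were level with each other, 1.37-fold and 1.39-fold above naive, and the library labelled iTreg was lowest. It was the only one of the 8 whose value in the library labelled Th17 exceeded naive. Gm12168, a short area of 506 bp only 3583 bp away, was highest in Th2 like Havcr2. It had 9.1 in naive cells and 13, 20.2, 8.1 and 6.7 in the Th1, Th2, labelled iTreg and labelled Th17 libraries. Med7, 12209 bp away on the same side, stood at 27.8 in naive cells and between 9.8 and 18.6 elsewhere. Tigit, which shares the ligand Pvr with the activating receptor Cd226 (chromosome 16, 43648973 to 43664296, minus strand), had 21 in naive cells, 12.1 in Th1, 30.1 in Th2, 17.4 in the library labelled iTreg and 12.1 in that labelled Th17. Th2 was 1.43-fold above naive, and Th1 and the library labelled Th17 were 1.74-fold below it.

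Against naive cells, few receptor genes reached a 2-fold difference. None of the 8 was at least 2-fold higher in any of the 4 libraries, where 4.34%, 4.85%, 4.52% and 4.63% of all gene areas tested passed that size in Th1, Th2, labelled iTreg and labelled Th17, in that order. At least 2-fold lower were 0 of 8 in Th1, Th2 and the library labelled iTreg, against 16.1%, 14.8% and 14.7% of all gene areas, and 2 of 8 (Cd28 and Btla) in the library labelled Th17, against 25.6%. As ratios of the deposited values, Cd28 was also 2-fold lower in Th1, 1 of 8 against 16.5%. With median-ratio scaling Btla fell short of 2-fold in that library, and the shares of all gene areas there were 9.44% higher and 16.9% lower. In the other 3 libraries, this scaling put 6.52% to 6.88% of all gene areas higher and 10.3% to 10.7% lower. The median log2 difference of the 8 genes was -0.43 in Th1, 0.05 in Th2, -0.47 in the library labelled iTreg and -0.76 in that labelled Th17. Over all gene areas tested these medians were -0.26, -0.21, -0.24 and -0.37. With median-ratio scaling the medians of the 8 genes were -0.24, 0.20, -0.32 and -0.46. Lower than naive by any amount were 5, 4, 7 and 7 of the 8 in the same order, against 63.7%, 61.4%, 62.3% and 65.8% of all gene areas. With only 8 genes and no test, no difference from the shares over all gene areas is read from these counts.

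**Figure D3:**
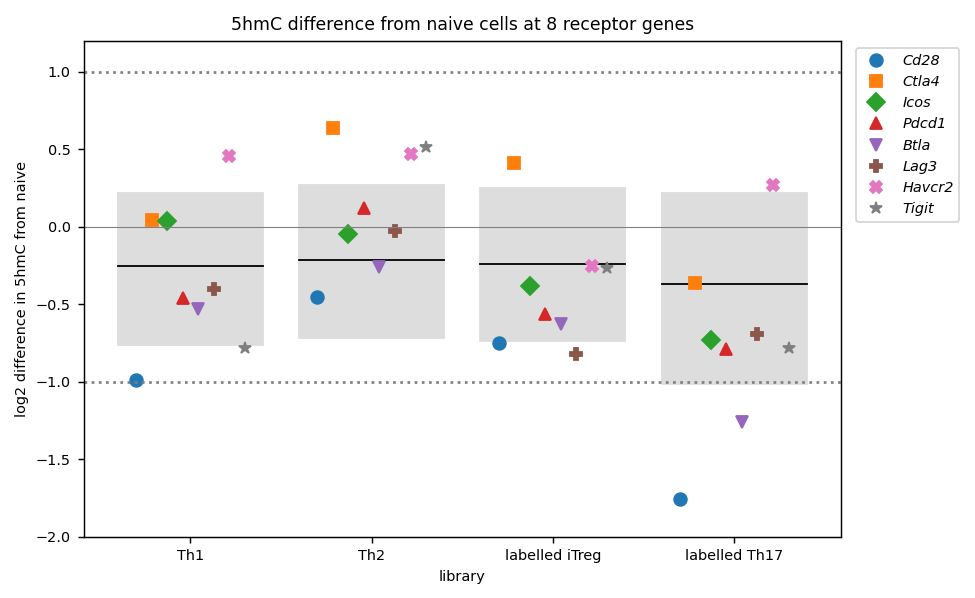
Log2 difference in 5hmC from naive cells (y axis) at the 8 receptor genes in each of the 4 differentiated libraries (x axis), where the grey box spans the quartiles of all gene areas tested, the black line is their median and dotted lines mark 2-fold. Cd28 at -1.76 and Btla at -1.26 in the library labelled Th17 are the points beyond a dotted line, and the highest point is Ctla4 in Th2 at 0.64.

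Among the 4 differentiated libraries, Th2 had the most 5hmC at nearly all of these genes. It lay above each of Th1 and the libraries labelled iTreg and Th17 at 7 of 8 receptor genes, all but Icos, against 30.4% of all gene areas tested. With median-ratio scaling it did so at 6 of 8, against 25.9%, since Havcr2 then stood slightly higher in Th1. Ctla4, Pdcd1, Havcr2 and Tigit had their highest value of the 5 libraries in Th2, which is 4 of 8 against 15.6% of all gene areas. Over naive, Th1 and Th2 alone that count was also 4, against 25.8%. With median-ratio scaling of the 5 libraries it was 4 as well, against 15.5%, with Lag3 in place of Havcr2. The inhibitory receptors Btla and Lag3 were highest in naive cells as deposited. Naive cells were highest at 3 genes, Cd28, Btla and Lag3, against 44.9%, and at Cd28 and Btla alone (2 genes) with median-ratio scaling, against 35.4%. Icos was highest in Th1, 1 of 8 against 11.6%. The library labelled Th17 was the sole lowest at Cd28, Ctla4, Icos, Pdcd1 and Btla, 5 of 8 against 36.3%, and the library labelled iTreg at Lag3 and Havcr2, 2 of 8 against 13.2%. The highest and lowest of the 5 libraries differed by at least 2-fold at 4 of 8 genes, against 49.2%. Against the mean of the other 4 libraries, Cd28 was the 1 gene at least 2-fold lower in the library labelled Th17, where 8.79% of all gene areas were. The order in single libraries has no replicate spread to set it against, and neighbours such as Th1 and Th2 at Havcr2, or naive and Th1 at Ctla4, are separated by less than 1 signal unit.

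Among themselves, the receptor genes were most alike in Pdcd1 and Lag3. Likeness was taken as the root-mean-square difference in log2 5hmC over the 5 libraries after each gene was centred on its own mean, so 0 would be the same profile. Pdcd1 and Lag3 differed by 0.13, Pdcd1 and Btla by 0.19, and Cd28 and Btla by 0.19. The linked genes were less alike than these closest pairs. Ctla4 and Icos differed by 0.33, Cd28 and Icos by 0.40 and Cd28 and Ctla4 by 0.48. Unlinked pairs lay on both sides of these values, such as Icos and Btla at 0.21 and Havcr2 and Tigit at 0.57. Cd28 and Havcr2 were farthest apart, at 0.71. Over all named gene areas of at least 3000 bp, the closest to Cd28 were Med28 and Magoh, both at 0.03. Those closest to Ctla4 were Nars2 and Ccdc37, both at 0.07, and to Icos Mapk9 at 0.03 and Scly at 0.04. For Pdcd1 they were Tmed3 at 0.04 and Gpr132 at 0.05, for Btla Polr1b at 0.03 and Zcchc17 at 0.04, and for Lag3 Zbtb41 and Lhpp, both at 0.04. Havcr2 was closest to Avpr1a at 0.04 and Ptpn3 at 0.05, and Tigit to Spry2 and Nfe2l1, both at 0.11. These are the best matches over 5 points picked from all such gene areas, and a close profile over so few libraries is easily met.

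The 5mC signal at the receptor genes was low and nearly level across cell types. Values were 0.2 to 1.6 over the 8 genes and 5 libraries, in steps of 0.1, and in Th17 cells all 8 genes had less 5mC than input DNA signal, as did 95.6% of all gene areas tested. Lag3 was highest, with 1.6 in naive cells and 1.3, 1.1, 1.4 and 0.9 in Th1, Th2, iTreg and Th17 cells. Havcr2 came next, with 0.8, 1.2, 1, 0.8 and 0.8 in the same order. Cd28 was lowest in naive cells with 0.2 and had 0.4, 0.4, 0.4 and 0.3 in the others. Against naive its 5mC was thus higher, by 1 or 2 rounding steps, and its 5hmC lower. Among the differentiated libraries this did not hold by label: those labelled Th17 had the lowest 5hmC, 9.9, and also the lowest 5mC, by 1 rounding step. The label of that 5hmC library is in doubt, so the 2 values may not belong to the same cell type. All 5mC values of Cd28 lay below its Th17 IgG signal of 1.1 and input signal of 1.8. Ctla4 had 0.6 in naive and Th1 cells and 0.3, 0.3 and 0.4 in Th2, iTreg and Th17 cells. Icos lay between 0.5 and 0.8, Pdcd1 between 0.5 and 0.7, Btla between 0.4 and 0.5 and Tigit between 0.3 and 0.5.

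With the pseudocount of 0.2 added, which is as large as the lowest of these values, none of the 8 reached a 2-fold difference in 5mC from naive in any library. Of all gene areas tested, 2.22%, 1.56%, 1.33% and 1.5% were at least 2-fold higher and 2.23%, 3.12%, 4.63% and 3.99% lower in Th1, Th2, iTreg and Th17 cells. As ratios of the deposited values, Cd28 was 2-fold higher in Th1, Th2 and iTreg cells, where 5.67%, 4.16% and 3.56% of all gene areas were at least that much higher. Ctla4 was 2-fold lower in Th2 and iTreg cells, where 8.97% and 12.2% were. The median log2 differences of the 8 genes were 0, -0.19, -0.08 and -0.21, against 0, -0.11, -0.19 and -0.19 over all gene areas. With median-ratio scaling the iTreg median of the 8 genes turned to 0.11, and those of Th2 and Th17 cells were -0.0891 and -0.0387.

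**Figure D4:**
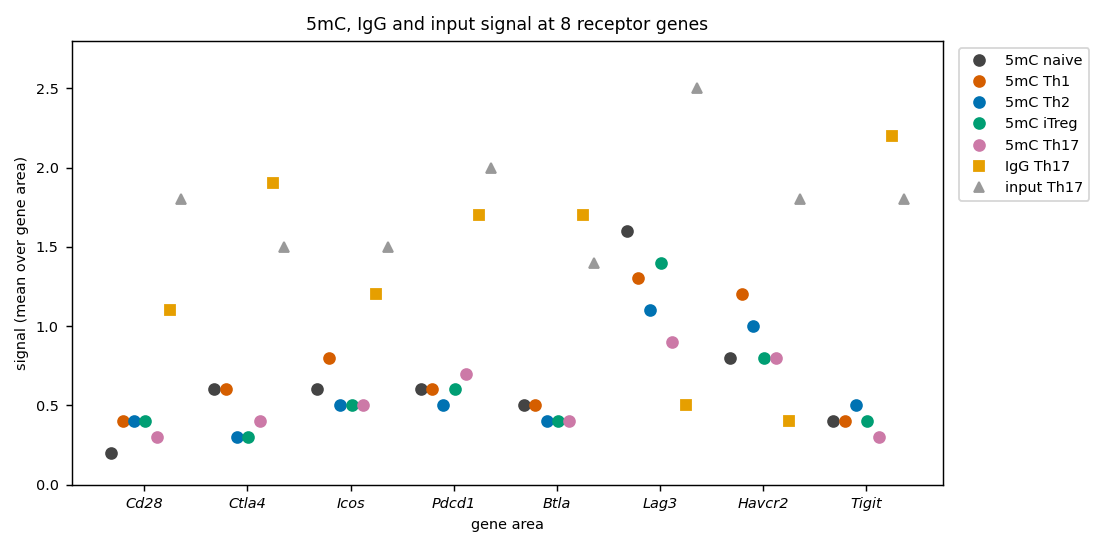
Signal (mean over the gene area, y axis) at each receptor gene (x axis) in the 5 5mC libraries (circles), the Th17 IgG library (squares) and the Th17 input library (triangles). The 5mC values stay between 0.2 and 1.6, and Lag3 and Havcr2 are the genes where 5mC exceeds IgG in each library. At the other genes 5mC lies below IgG in each library.

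Set against 5mC, most receptor genes ranked higher among gene areas in 5hmC. This is the comparison with more than 1 library a side: the 5 5hmC libraries against the 5 5mC libraries, each centred on its median gene area, with cell type as a block, so the spread is that between cell types. In limma, 7 of 8 genes were called higher in 5hmC, where a call took a log2 difference of 1 or more together with a p below 0.05 after Benjamini-Hochberg adjustment, against 10.1% of 28159 gene areas called higher and 7.62% lower. The filter on low values used the mean over both antibodies. With 5mC of at most 1.6, the 8 genes passed it through 5hmC, the side then called higher. With no filter 7 of 8 were called higher too, against 7.57% of 37544 gene areas higher and 18.5% lower. Centring there still used the gene areas past the filter, so the 8 differences stayed the same and only their SE and p could move. That run therefore cannot show how far the filter shaped these calls. Without centring, nearly all gene areas (99.8%) were called higher, so the comparison is one of relative rank. Btla had the largest difference, 1.81 ± 0.19 (SE, log2; limma adjusted p = 0.000324), and Icos followed with 1.79 ± 0.16 (limma adjusted p = 0.000217). Ctla4 and Pdcd1 stood at 1.69 and 1.67, Cd28 at 1.36 and Lag3 at 1.34, with limma adjusted p between 0.000608 and 0.00428. Tigit was just past the size rule at 1.03 ± 0.19 (limma adjusted p = 0.00308). Havcr2 was not called, with 0.36 ± 0.17 (limma adjusted p = 0.121). The median of the 8 genes was 1.51, against 0.08 over all gene areas tested. Tigit was at 0.99 without naive cells and at 0.89 without Th2, below the size rule, and Cd28 and Tigit were at 0.87 and 0.64 with a pseudocount of 1. The count was also 7 when both libraries with doubtful labels were left out, against 10.9% of all gene areas. At Cd28, Ctla4, Icos, Pdcd1, Btla and Tigit the 5mC signal lay below the Th17 IgG signal in each library. The differences and SE of these genes thus rest on 5mC values near background, rounded to 0.1.

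Genes of the pathway beyond the receptors were taken from 4 lists: ligands, related receptors, signalling genes, and exhaustion or follicular factors. The ligands and the related receptors mostly stayed within 2-fold of naive when the 4 differentiated libraries were averaged on the log2 scale, while 12 of 22 signalling genes were lower by more (7 with median-ratio scaling). Over all gene areas tested, 16% were at least 2-fold lower and 2.94% higher in that mean, with a median of -0.27. The 8 receptor genes had a median of -0.38, with 0 of 8 past 2-fold in either direction and 6 of 8 below naive by any amount, against 64.4%. The nearest was Cd28 at -0.99.

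Of 13 ligand genes, 2 were at least 2-fold lower and none higher, with a median of -0.36. Lgals3, a galectin, stood at -1.48 and Tnfrsf14, the ligand of Btla, at -1.20. At the upper end were Fgl1, a ligand of Lag3, at 0.50 and Pdcd1lg2, named here after its value was seen, at 0.36. It encodes PD-L2, a ligand of Pdcd1. Among 12 related receptors measured, of 13 listed since Pvrig was not matched, 1 was at least 2-fold lower: 4632428N05Rik, known as Vsir or Vista, at -1.12, with 88.2 in naive cells and between 35.1 and 47.7 elsewhere. It fell short of 2-fold with median-ratio scaling. Havcr1, a relative of Havcr2, was highest at 0.25. The list median was -0.54.

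In the signalling list, 12 of 22 genes were at least 2-fold lower, none higher, and the median was -1.05. Lck, a kinase bound by the tails of Cd4 and Cd8, had 223.1 in naive cells and 68, 76, 81.2 and 50 in the Th1, Th2, labelled iTreg and labelled Th17 libraries. Grap2 (Gads), an adaptor, stood at -1.64, and Pik3cd, a phosphoinositide kinase subunit, at -1.61. Ptpn6 (SHP-1), a phosphatase that inhibitory receptors recruit, had 120.3 in naive cells and 30.6 to 52.5 elsewhere. Others past 2-fold included Akt1, Sh2d1a, Bag6, Grb2, Prkcq, Ppp2ca and Vav1, between -1.40 and -1.04. Malt1 was nearest to naive at -0.07, but its IgG signal was 43.2. With median-ratio scaling 7 of the 22 were at least 2-fold lower, against 10.2% of all gene areas, and 9 were when the 2 libraries with doubtful labels were left out, against 14.1%. Of 18 exhaustion and follicular factors, 2 were at least 2-fold lower, Tox at -1.22 and Nfatc1 at -1.01, and the median was -0.36. Tbx21, the Th1 factor, was highest at 0.41. With median-ratio scaling 1 of these 18 was lower.

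**Figure D5:**
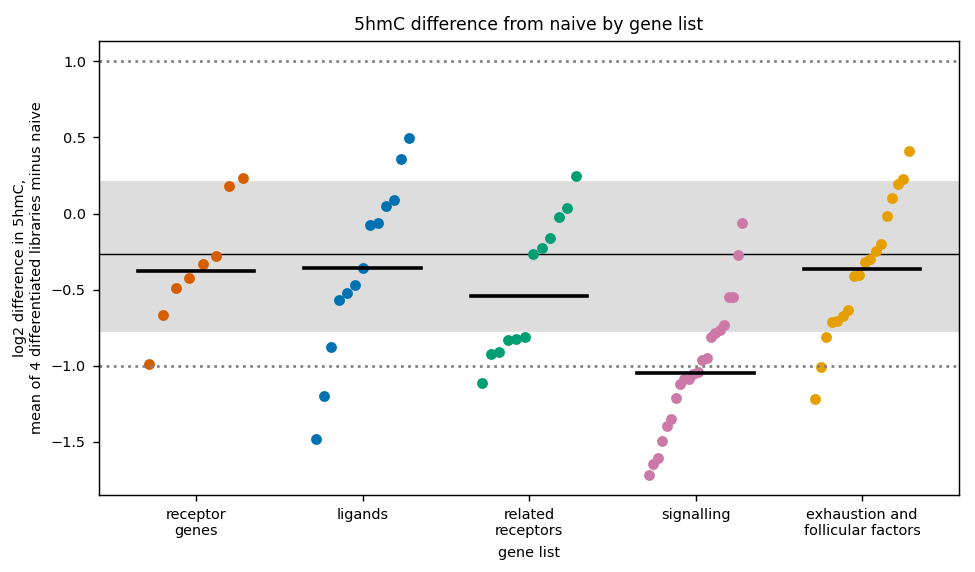
Log2 difference in 5hmC between the mean of the 4 differentiated libraries and naive cells (y axis), 1 point per gene, for the receptor genes and the 4 lists (x axis), with list medians as thick lines, the quartiles of all gene areas tested in grey and 2-fold dotted. The signalling genes have a median of -1.05 and reach down to -1.72 at Lck, while the receptor genes lie between -0.99 and 0.24.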

How the data were processed

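The authors deposited 1 signal value per gene area for each of 12 libraries, a mean that is never negative and has 1 decimal. CASAVA 1.7.0 and the mm9 build were used, per the submitters' processing notes. How reads were aligned, extended, stripped of duplicates, counted and scaled is not given in the sources used here, so depth is unknown and its limits on precision cannot be computed. Each column names its sample number, which the titles repeat, and 0 columns were unused. For symbols listed more than once the entry of highest mean signal was kept, which dropped 208 of 37752 entries. The 8 receptor genes, the lists and the counts were chosen with earlier results of these data known.

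A pseudocount of 0.2 (the 5th percentile of values above 0) was added before log2, which shrinks differences of gene areas with low signal. Counts over all gene areas used those with a mean of at least 3.31, the 25th percentile. Calls between cell types needed a log2 difference of 1. The 4 comparisons with naive under each antibody share 1 naive library. The antibodies were compared with limma 3.58.1 (R 4.3.3, empirical Bayes with trend) over 28159 gene areas. Tested on simulated data made from this comparison, it found 65 of 100 gene areas shifted by a log2 of 1.5, found 95 of 100 shifted by 3, and wrongly called 3 of the 27959 left as they were. The simulated log2 values were independent and normal, with no rounding, no floor and no differences between cell types. These rates may therefore not hold for 5mC values near background. Python 3.11.15, numpy 2.4.6 and pandas 2.3.3 did the rest. Genes named were the 8 receptors, their 2 nearest gene areas on each side or those between Cd28 and Icos, pathway genes past 2-fold and the ends of each list, and the 2 closest profiles per receptor, of which the informative ones are printed. Alternatives tried were a pseudocount of 1, median-ratio scaling, taking off the IgG value, other filters and references, and leaving out cell types. Coordinates of gene areas are on mm9 as the file gives them, and whether they count from 0 or 1 is not stated. Promoter windows come from RefSeq on GRCm38.p6, and the 2 builds were not mixed.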

Additional observations from a re-analysis of the deposited data

How the results depend on the processing

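Between 5hmC libraries, the medians and counts of the 8 receptor genes kept their direction under a pseudocount of 1, median-ratio scaling and removal of the IgG value. The exceptions were counts. At least 2-fold lower than naive in the library labelled Th17 was 1 gene with median-ratio scaling, and 1 against the mean of the other 4 libraries, in place of 2. With the Th17 IgG value taken off, Cd28 passed 2-fold in Th1 (1 gene) and in the mean of the 4 libraries (1 gene), in place of 0. Of all gene areas, 19% were at least 2-fold lower in that mean under this setting. For Th1 the share is known only before the IgG value was taken off, 16.1%. In the mean of the 4 libraries, median-ratio scaling left 7 signalling genes, 0 related receptors and 1 exhaustion or follicular factor at least 2-fold lower. A pseudocount of 1 left 1 exhaustion or follicular factor lower. Without the libraries labelled iTreg and Th17, a choice made after seeing the data, 1 ligand, 2 related receptors and 1 exhaustion or follicular factor were lower, and 1 such factor was higher. As ratios of the deposited values, also a later choice, Cd28 and Ctla4 reached 2-fold in 5mC and Cd28 in 5hmC in Th1. The cause of these moves was not tested. For 5mC, median-ratio scaling moved the median differences of the 8 genes to -0.0891, 0.11 and -0.0387 in Th2, iTreg and Th17 cells, and a pseudocount of 1 moved those of Th2 and Th17 cells to -0.0931 and -0.0963. In the limma comparison the count of genes called higher was 6 to 7 when each cell type was left out in turn. Of all gene areas, 9.65% to 10.6% were called higher in those fits. The count was 5 with a pseudocount of 1, against 8.47%, and 8 without centring, against 99.8%. With no filter on low values 7 were called higher, while 6946 of 37544 gene areas were called lower in place of 2147 of 28159. Centring in that fit still used the gene areas past the filter, which kept the differences of the 8 genes the same. No receptor gene was called lower in any of these fits. No paired analysis was possible for the differences between cell types because each group holds 1 library. Over gene areas of at least 3000 bp, the share at least 2-fold higher than naive was 1.64% to 2.37%, and with no filter on low values 7.28% to 7.48%. Rounding to 0.1 limits every 5mC comparison.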
